A study of Mus musculus with 8 samples.

Results

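The mitosis genes are 30 genes whose products carry a cell from the end of G2 through chromosome segregation and division. They were taken by name: the rows of the expression table whose NCBI gene number belongs to 1 of 30 mouse symbols, and all 30 were found among 18020 rows. The rule uses names and no measured value, though earlier results of these data were known when the genes were chosen. The RNA came from bone marrow of leukaemic mice that had received BCR-ABL1+ B-ALL cells, which are mouse B-lineage cells transformed by the BCR-ABL1 fusion kinase, a model of B-cell acute lymphoblastic leukaemia. WT_PBS (n = 2) had Aid WT cells and phosphate-buffered saline, the vehicle. In WT_LPS (n = 3) the cells were Aid WT and the treatment was LPS, the lipopolysaccharide of bacterial outer membranes. KO_LPS (n = 3) had Aid KO cells and LPS. Every group thus carried the BCR-ABL1+ leukaemia, and no library of Aid KO cells with PBS was analysed here. The design text words LPS and PBS as treatments of the transplanted cells, and it gives no dose or time. The labels state neither strain, sex and age of the mice nor how the cells were transformed. Nor is it stated whether separate cultures were transplanted within a group, so p-values cover the library-to-library spread alone, part of which could be technical.

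Entry into mitosis is driven by the kinase CDK1 bound to B-type cyclins. The spindle checkpoint then holds the cell until every kinetochore is attached, after which the anaphase-promoting complex with its activator CDC20 marks cyclin B and securin for destruction. Separase is freed, the sister chromatids part, and motor and microtubule-bundling proteins complete division. In most dividing cells these genes are transcribed in G2 and mitosis, under the MuvB complex with B-MYB and FOXM1. MuvB binds a promoter element called the cell cycle genes homology region (CHR), and the factor NF-Y binds CCAAT boxes nearby. In marrow, precursor B cells and erythroid and myeloid precursors divide, so a level in whole marrow does not belong to 1 cell type.

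The promoters of several members are shown first, because the known CHR and CCAAT elements could be looked for in them. RefSeq (GRCm38.p6) promoter windows, from 250 bases before to 50 bases after an annotated start, were held for 25 of the 30 genes. Aurkb, Ccna2, Foxm1, Kif20a and Tpx2 had no entry in the table used. The core CHR letters TTTGAA and the letters CCAAT were searched on both strands. Capitals mark TTTGAA and CCAAT, or ATTGG where CCAAT lies on the other strand, and each window reads 5′ to 3′ in the direction of its gene. Cdk1 (window chr10:69352863-69353162, minus strand), Ccnb2 (chr9:70421505-70421804, minus), Plk1 (chr7:122159185-122159484, plus), Cdc20 (chr4:118437294-118437593, minus) and Cenpa (chr5:30666636-30666935, plus) hold both motifs. Ccnb1 (chr13:100786437-100786736, minus) holds CCAAT alone, and Birc5 (chr11:117848987-117849286, plus) holds neither.
Cdk1: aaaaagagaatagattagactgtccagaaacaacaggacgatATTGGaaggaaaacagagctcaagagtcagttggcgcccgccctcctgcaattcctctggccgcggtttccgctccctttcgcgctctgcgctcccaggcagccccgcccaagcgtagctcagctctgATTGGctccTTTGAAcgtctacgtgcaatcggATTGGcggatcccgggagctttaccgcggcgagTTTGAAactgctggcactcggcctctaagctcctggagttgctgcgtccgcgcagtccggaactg
Ccnb2: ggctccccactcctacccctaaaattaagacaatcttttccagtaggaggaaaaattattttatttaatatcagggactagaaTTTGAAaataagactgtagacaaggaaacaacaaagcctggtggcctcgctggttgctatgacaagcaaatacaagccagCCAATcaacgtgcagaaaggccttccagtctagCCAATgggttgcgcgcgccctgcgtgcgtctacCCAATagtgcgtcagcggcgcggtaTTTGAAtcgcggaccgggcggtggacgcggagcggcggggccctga
Plk1: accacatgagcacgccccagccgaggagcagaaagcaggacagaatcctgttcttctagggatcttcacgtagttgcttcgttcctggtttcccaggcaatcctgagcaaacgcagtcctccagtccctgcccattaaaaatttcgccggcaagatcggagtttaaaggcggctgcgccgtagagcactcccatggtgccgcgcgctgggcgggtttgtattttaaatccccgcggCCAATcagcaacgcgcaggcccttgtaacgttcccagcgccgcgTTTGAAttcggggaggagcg
Cdc20: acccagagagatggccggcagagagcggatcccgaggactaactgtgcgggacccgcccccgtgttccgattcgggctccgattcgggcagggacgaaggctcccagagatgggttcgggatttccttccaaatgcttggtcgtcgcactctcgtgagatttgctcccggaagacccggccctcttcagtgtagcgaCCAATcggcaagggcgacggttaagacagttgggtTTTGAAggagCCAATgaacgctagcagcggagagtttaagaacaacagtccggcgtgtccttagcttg
Cenpa: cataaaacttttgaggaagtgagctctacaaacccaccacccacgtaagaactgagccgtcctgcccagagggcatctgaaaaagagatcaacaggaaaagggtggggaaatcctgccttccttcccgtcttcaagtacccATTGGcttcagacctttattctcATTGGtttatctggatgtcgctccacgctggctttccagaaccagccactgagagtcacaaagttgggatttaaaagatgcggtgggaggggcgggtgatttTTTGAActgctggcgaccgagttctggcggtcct
Ccnb1: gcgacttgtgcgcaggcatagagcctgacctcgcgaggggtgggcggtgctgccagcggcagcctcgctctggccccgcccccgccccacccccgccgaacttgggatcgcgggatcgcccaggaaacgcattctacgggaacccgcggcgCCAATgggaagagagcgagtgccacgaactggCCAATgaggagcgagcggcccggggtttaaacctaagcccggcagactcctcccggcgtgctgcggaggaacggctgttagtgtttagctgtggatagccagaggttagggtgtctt
Birc5: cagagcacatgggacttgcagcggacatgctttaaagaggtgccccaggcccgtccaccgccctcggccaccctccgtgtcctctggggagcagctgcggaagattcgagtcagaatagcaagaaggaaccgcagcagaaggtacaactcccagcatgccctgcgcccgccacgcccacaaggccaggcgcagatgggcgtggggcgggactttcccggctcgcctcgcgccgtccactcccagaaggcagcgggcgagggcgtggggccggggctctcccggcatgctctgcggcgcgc

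TTTGAA was present in 19 of the 25 members with a window (76.0%), beside 14.7% of 9266 tested genes with one and 17.9% of all 32851 windows. CCAAT was present in 21 (84.0%), beside 43.9% of tested genes and 37.4% of all windows. Both occurred in 18 members (72.0%), beside 6.27% of tested genes and 6.95% of all windows. The match to TTTGAA lay close to the start: it began within 50 bases of it in 18 of the 25 members (72.0%), and in 3.86% of tested genes. A list of 138 other mitosis genes was intermediate, with TTTGAA in 45.2% of 115 windows, and in a list of 32 DNA replication and G1/S genes it was in 12.0% of 25 windows. Of the members, 14 held at least 2 CCAAT letters (56.0%), beside 17.4% of tested genes and 11.7% of all windows. In Cdca8 a TTTGAA and a CCAAT shared 1 base, and in Ube2c a pair of CCAAT matches on opposite strands shared 2. Birc5, Mad2l1 and Nusap1 held neither run of letters in this window, and Bub1, Ccnb1 and Cenpe held CCAAT without TTTGAA. A match is a description of letters, and binding was not measured.

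**Figure D1:**
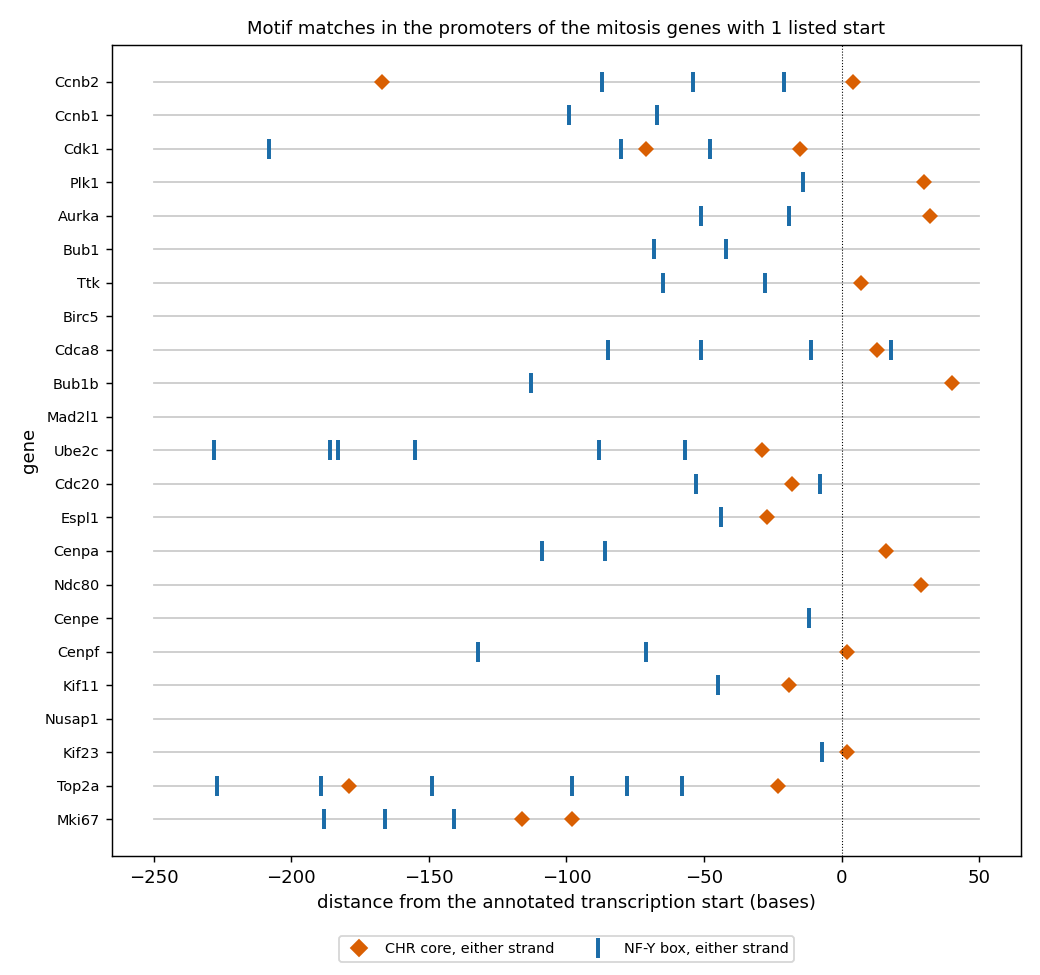
Positions of the CHR core (TTTGAA, diamonds) and of NF-Y boxes (CCAAT, bars) on either strand, as distance in bases from the annotated start, for the 23 mitosis genes with 1 listed start. Diamonds gather within 50 bases of the start, and Birc5, Mad2l1 and Nusap1 have neither mark.

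Values are FPKM, which divide a gene's fragments by transcript length and library size, and they summed to 606576 to 700238 per library. Depth in reads is unknown. The B-lineage label was set beside 16 markers, with medians of 68.3 to 110 FPKM per library. Cd79a, a B-cell receptor subunit, was at 844 to 1086 FPKM and Vpreb1, a surrogate light chain, at 1996 to 2946. Not every marker was high: Dntt was at 0.16 to 1.0 and Rag2 at 1.35 to 9.78. The libraries were mixtures, since 15 neutrophil markers summed to 5961 to 29656 FPKM. On the first principal component, with 60.5% of the variance, WT_LPS replicate 1, KO_LPS replicate 1 and KO_LPS replicate 2 scored 17.4, 34.5 and 50.02 and the other 5 scored -35.1 to -1.30. In bulk RNA, fewer cells of a type and less RNA per cell cannot be told apart.

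All 30 mitosis genes were above 0 in every library, and their mean levels over the 8 libraries ranged from 8.92 FPKM for Cenpf (RefSeq gene 108000, chr1:189640606-189688107, GRCm38.p6, minus strand) to 227 for Cenpa (gene 12615, chr5:30666877-30674837, plus strand). Among the 12061 genes tested, which averaged 0.5 FPKM or more, 23 members lay at or above the 75th percentile, and Cenpe and Cenpf lay below the median. The highest library of a gene was at a median of 1.54 times the lowest, against 1.86 for tested genes above 0 throughout and 1.47 for those at or above the 75th percentile of level. Above 1.86 were Ttk at 2.30 times, Cdk1 at 2.06, Birc5 at 1.91 and Prc1 at 1.89, and the smallest ratio was that of Aurkb. Ttk (gene 22137, chr9:83834651-83872390, plus strand) encodes the checkpoint kinase MPS1. Its level was 7.14, 7.18 and 9.15 FPKM in KO_LPS replicates 1 and 2 and WT_LPS replicate 1, and 13.5 to 16.4 in the other 5.

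**Figure D2:**
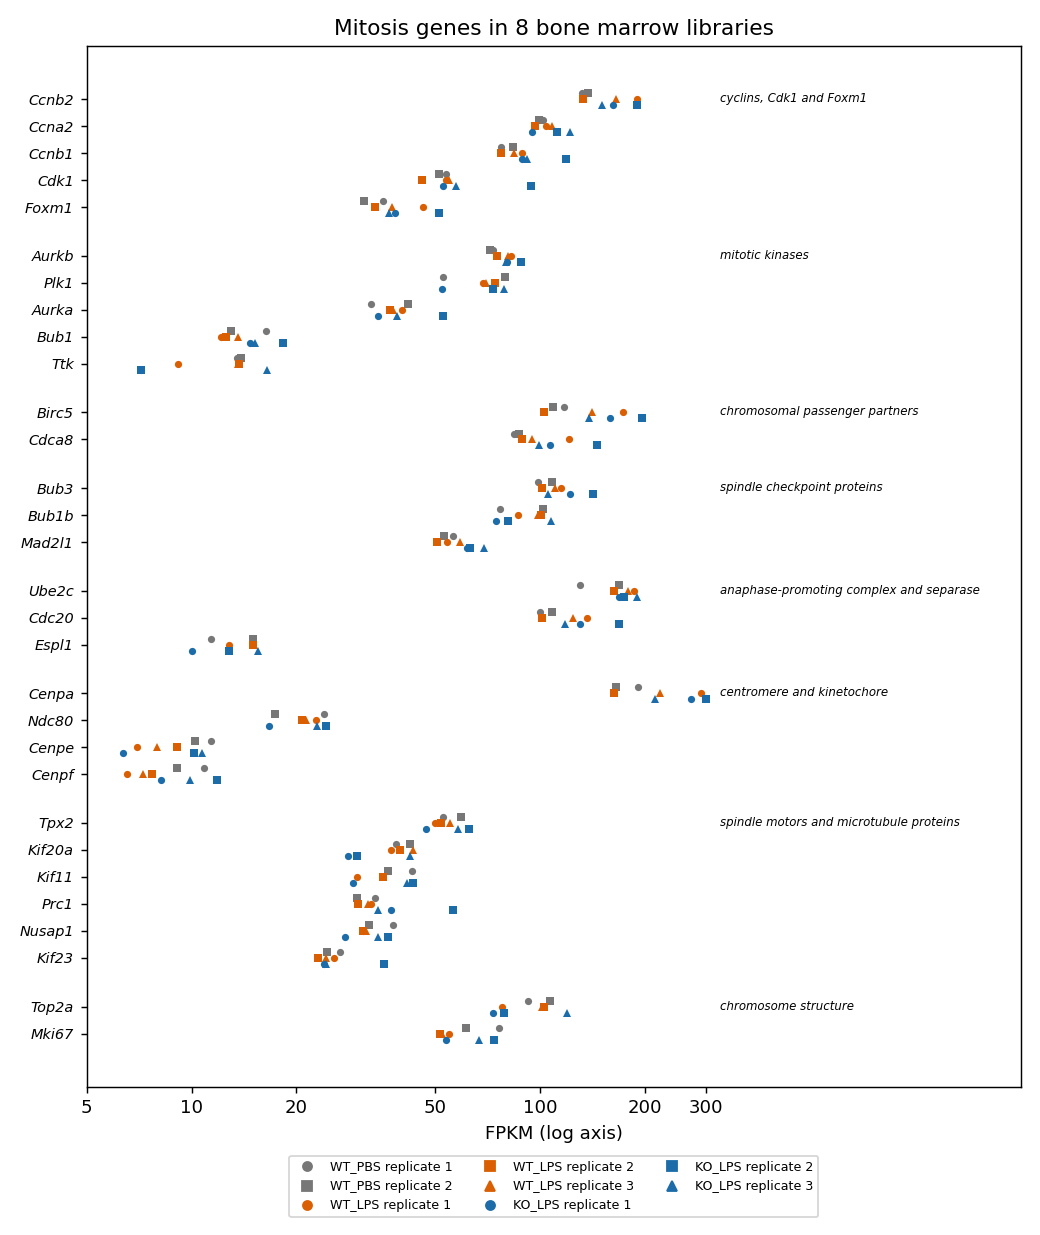
FPKM of each mitosis gene (log axis) in each of the 8 libraries, by role, with colour for the group and shape for the replicate. Cenpa, Ube2c and Ccnb2 are highest, Cenpe and Cenpf lowest, and the KO_LPS replicate 2 square is the rightmost point for Cdk1, Prc1, Birc5 and Cdca8.

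The cyclins and their kinase stand at the head of the mitotic programme. Ccnb2, encoding cyclin B2, was at 132 and 138 FPKM in WT_PBS, 189.7, 133 and 166 in WT_LPS, and 162, 189.6 and 151 in KO_LPS. Both WT_PBS values were below all but 1 of the LPS libraries, WT_LPS replicate 2. Ccnb1, encoding cyclin B1, was at 77.3 and 83.7 FPKM in WT_PBS, 89.0, 77.6 and 84.3 in WT_LPS, and 89.0, 119 and 91.7 in KO_LPS. The KO_LPS values of Ccnb1 were above all 5 others, though its lowest (89.02) all but met WT_LPS replicate 1 (88.99), and KO_LPS replicate 2 was far above the rest. Cdk1 (gene 12534, chr10:69335146-69352912, minus strand) was at 53.9 and 51.3 FPKM in WT_PBS, 53.7, 45.9 and 54.8 in WT_LPS, and 52.8, 94.5 and 57.3 in KO_LPS, so that 7 libraries lay between 45.9 and 57.3 and KO_LPS replicate 2 stood apart. The ratio of Ccnb2 to Ccnb1 was above 1 in 8 of 8 libraries, at 1.59 to 2.13. Ccna2, encoding the S and G2 cyclin A2, was at 94.9 to 122 FPKM. Foxm1, the transcription factor of the programme, was at 35.4 and 31.4 FPKM in WT_PBS, 46.3, 33.5 and 37.7 in WT_LPS, and 38.3, 51.2 and 37.0 in KO_LPS. Its highest values were in KO_LPS replicate 2 and WT_LPS replicate 1, and its LPS groups overlapped.

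The mitotic kinases spanned both ends of the members' variation, from Aurkb at 1.23 to Ttk at 2.30 times between lowest and highest library. Plk1, which encodes a kinase of mitotic entry and spindle assembly, was at 52.9 and 79.6 FPKM in WT_PBS, 68.7, 74.6 and 70.0 in WT_LPS, and 52.5, 73.6 and 79.0 in KO_LPS, and all 3 groups overlapped. Aurkb, the kinase of the chromosomal passenger complex, was at 73.4 and 72.0 FPKM in WT_PBS, 82.4, 75.5 and 81.1 in WT_LPS, and 80.5, 88.5 and 80.1 in KO_LPS, so that both WT_PBS libraries were the lowest. Bub1, a checkpoint kinase at the kinetochore, was at 16.4 and 13.0 FPKM in WT_PBS, 12.2, 12.6 and 13.6 in WT_LPS, and 14.7, 18.3 and 15.2 in KO_LPS. Aurka, the centrosomal Aurora kinase, was at 32.7 to 52.7 FPKM.

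The partners of Aurkb in the passenger complex were read next. Birc5 (gene 11799, chr11:117849237-117855743, plus strand), encoding survivin, was at 118 and 109 FPKM in WT_PBS, 174, 103 and 141 in WT_LPS, and 159, 196 and 139 in KO_LPS. Cdca8, encoding borealin, was at 84.3 and 87.4 FPKM in WT_PBS, 121, 88.6 and 95.2 in WT_LPS, and 107, 146 and 99.4 in KO_LPS. For both genes every KO_LPS library was above both WT_PBS libraries. WT_LPS overlapped KO_LPS, though replicate 2 for Birc5 and replicates 2 and 3 for Cdca8 lay below every KO_LPS library. Of the checkpoint proteins, Bub3 was at 99.0 and 108 FPKM in WT_PBS, 115, 102 and 110.3 in WT_LPS, and 122, 142 and 105 in KO_LPS, and its groups overlapped. Mad2l1, whose product inhibits CDC20, was at 56.4 and 53.2 FPKM in WT_PBS, 54.1, 50.8 and 59.0 in WT_LPS, and 61.9, 62.9 and 69.2 in KO_LPS, with all KO_LPS libraries above the other 5. Bub1b, encoding the checkpoint protein BUBR1, was at 74.96 to 107 FPKM.

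For exit from mitosis, Cdc20 was at 100.3 and 108 FPKM in WT_PBS, 137, 102 and 124 in WT_LPS, and 130.4, 169 and 118 in KO_LPS. Ube2c, the ubiquitin-conjugating enzyme of the anaphase-promoting complex, was at 131 and 169 FPKM in WT_PBS, 187, 163 and 179.6 in WT_LPS, and 169, 174 and 189.6 in KO_LPS, where 1 WT_PBS library was below all others. Espl1, encoding separase, was at 10.02 to 15.5 FPKM. At the centromere, Cenpa, the histone H3 variant that marks it, was at 191 and 166 FPKM in WT_PBS, 290.3, 164 and 221 in WT_LPS, and 272, 300.4 and 214 in KO_LPS. Cenpf, a large kinetochore protein, was at 10.9 and 9.08 FPKM in WT_PBS, 6.51, 7.72 and 7.23 in WT_LPS, and 8.19, 11.8 and 9.91 in KO_LPS. WT_LPS was below both other groups for Cenpf, while WT_PBS and KO_LPS overlapped. Cenpe, a kinetochore motor, was at 11.4 and 10.3 FPKM in WT_PBS, 6.99, 9.11 and 7.95 in WT_LPS, and 6.34, 10.2 and 10.7 in KO_LPS. Ndc80, which binds microtubules at the kinetochore, was at 16.7 to 24.3 FPKM.

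Among spindle motors and microtubule proteins, Prc1, a bundler of the central spindle, was at 33.7 and 29.8 FPKM in WT_PBS, 32.7, 30.1 and 32.1 in WT_LPS, and 37.5, 56.4 and 34.4 in KO_LPS. KO_LPS replicate 2 stood far above the rest. The other KO_LPS libraries were also above every Aid WT library, though replicate 3 (34.37) was only just above WT_PBS replicate 1 (33.68). The motor genes Kif11, Kif20a and Kif23 ranged over 29.0 to 43.2, 28.1 to 43.3 and 23.0 to 35.6 FPKM, and the spindle genes Tpx2 and Nusap1 over 47.3 to 62.6 and 27.5 to 37.9. Of the chromosome proteins, Mki67, encoding the proliferation antigen Ki-67, was at 76.3 and 61.2 FPKM in WT_PBS, 54.8, 51.7 and 52.4 in WT_LPS, and 53.9, 73.9 and 67.1 in KO_LPS. Top2a, encoding the topoisomerase that untangles sister chromatids, was at 92.5 and 107 FPKM in WT_PBS, 78.0, 103 and 101 in WT_LPS, and 73.3, 78.7 and 119 in KO_LPS. WT_LPS was below WT_PBS for Mki67, and the groups overlapped for Top2a. By GENCODE M21, leaving out small RNAs and provisional loci, 12 of the 30 genes overlap another annotated gene, 11 of them on the other strand. Kif20a lies across from Cdc23, Nusap1 from Oip5 and Cdc20 from Elovl1. Whether counting used strand is not given in the sources used here, so reads of such pairs cannot be told apart.

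The first comparison asked how LPS treatment bore on the Aid WT leukaemia marrow. No mitosis gene passed the test. Of the 30 members 0 passed an adjusted p of 0.05, as did 0% of the 12061 genes tested (limma on log2(FPKM + 1), Benjamini-Hochberg over all genes). At an unadjusted p under 0.05 there were 0 of 30 members and 142 genes (1.18%). The members' median difference was 0.04 (log2), with 16 of 30 above 0, and all genes had a median of -0.06, with 38.5% above 0. The smallest p belonged to Mki67, at 68.8 ± 10.7 FPKM (SD, n = 2) in WT_PBS and 52.9 ± 1.65 (n = 3) in WT_LPS, a log2 difference of -0.36 ± 0.16 (SE; limma, unadjusted p = 0.054, adjusted p = 0.9998). Cenpf differed by -0.43 ± 0.21 and Cenpe by -0.40 ± 0.25, while Ube2c differed by 0.24 ± 0.14 and Ccnb2 by 0.26 ± 0.17, all with the same adjusted p (limma). Several of these sizes rested on 1 library. Without WT_PBS replicate 1 Mki67 was at -0.21 and Ube2c at 0.06, and without WT_PBS replicate 2 Ube2c was at 0.43. Ccnb2 was at 0.14 without WT_LPS replicate 1 and 0.39 without WT_LPS replicate 2. Groups did not overlap for Cdca8 and Aurkb, where WT_LPS was higher, 2 of 30 members against 5.36% of all genes. They did not overlap for Mki67, Cenpf, Cenpe, Kif11 and Nusap1, where WT_LPS was lower, 5 of 30 against 10.3%.

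By role, all 3 genes of the anaphase-promoting complex and separase lay above 0 and so did both passenger partners, under each scaling tried. Of the 6 spindle motor and microtubule genes 0 lay above 0, but 2 did after median-ratio scaling or quantile normalization and 4 after the trend with transcript length and GC content was removed, so that direction depends on the scaling. All 30 of the 95% intervals included 0 and all 30 lay within 1 log2 unit of it, the outermost bounds being -0.97 for Ttk and 0.84 for Cenpa. Without WT_PBS replicate 1 the members' median was -0.01, on the other side of 0.

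The second comparison set KO_LPS against WT_LPS and asked how the loss of Aid in the transplanted cells bore on the LPS-treated leukaemia. Again 0 of 30 mitosis genes passed, where 10 of 12061 genes did (0.0829%; limma). At an unadjusted p under 0.05 the counts were 0 of 30 and 686 genes (5.69%). The members' median was 0.12 (log2), with 23 of 30 above 0, beside -0.06 and 42% for all genes. Cenpf had the smallest p, at 9.98 ± 1.83 FPKM in KO_LPS and 7.15 ± 0.609 in WT_LPS (SD, n = 3 each), a log2 difference of 0.42 ± 0.19 (SE; limma, unadjusted p = 0.053, adjusted p = 0.765). Mad2l1 differed by 0.24 ± 0.11, Prc1 by 0.39 ± 0.18, Mki67 by 0.28 ± 0.15 and Bub1 by 0.31 ± 0.16, with that same adjusted p (limma). Without KO_LPS replicate 2, Prc1 and Mki67 each differed by 0.18. KO_LPS was above WT_LPS without overlap for 5 of 30 members, Cenpf, Mad2l1, Prc1, Bub1 and Ccnb1, against 4.82% of all genes. It was below without overlap for 0 of 30, against 4.32%.

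All 5 genes of the cyclin and Foxm1 group lay above 0 except under quantile normalization, where 4 did, and 5 of 6 spindle motor and microtubule genes did under each scaling tried, Kif20a being the one below. The intervals of all 30 genes included 0, and 29 lay within 1 log2 unit of it, Ttk reaching -1.01. The median rested on 1 library: without KO_LPS replicate 2 it was 0.03, without KO_LPS replicate 1 it was 0.21, and with the first principal component as a covariate it was 0.07. Both WT_LPS libraries with title numbers above 10 (40 and 100) lie in 1 group, and with that number as a covariate the median was 0.06. What the title numbers stand for is not given.

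**Figure D3:**
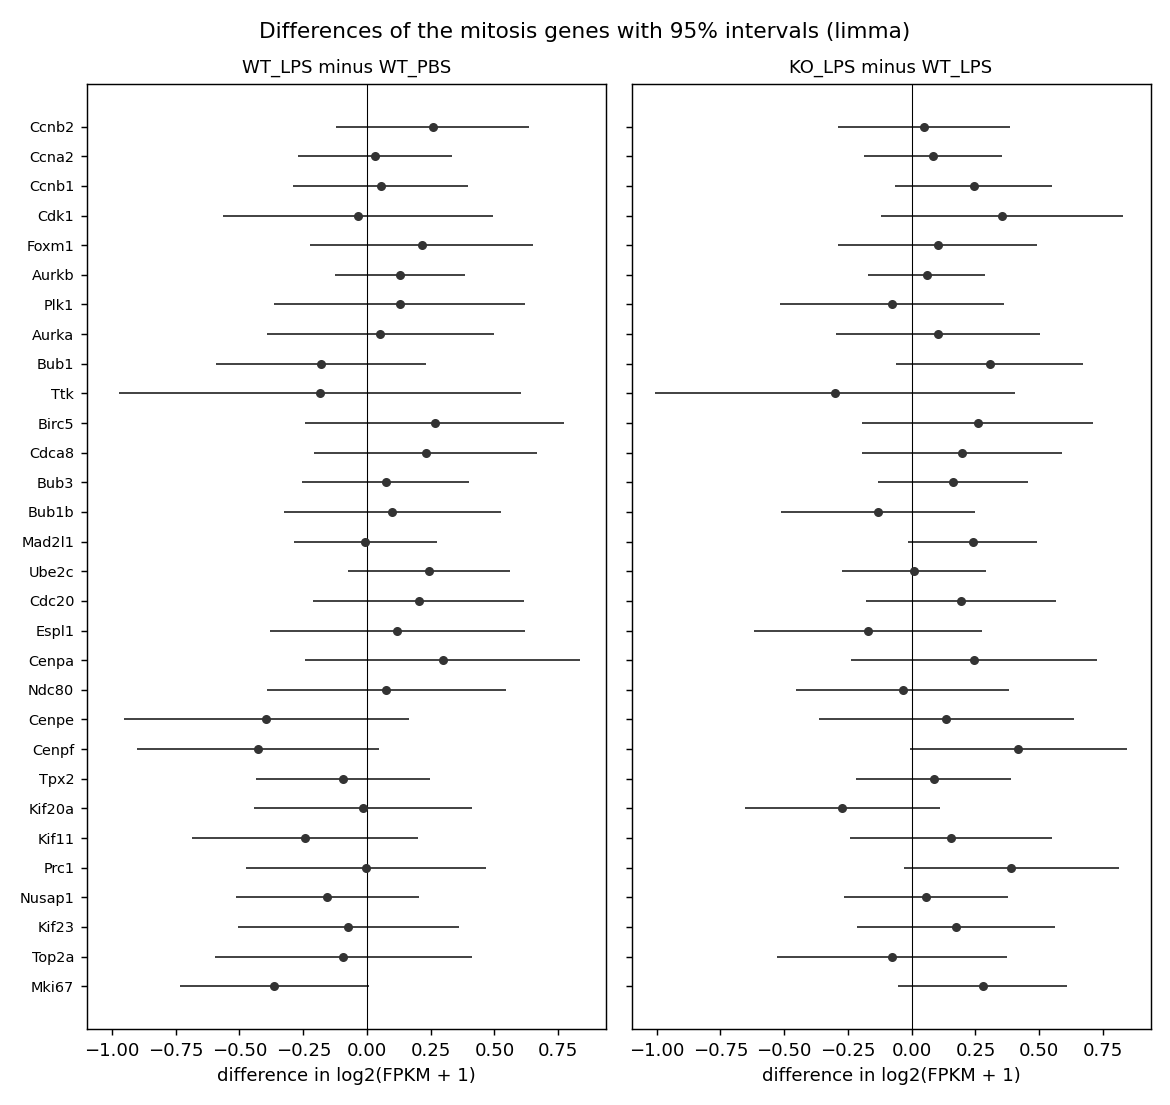
Differences in log2(FPKM + 1) of each mitosis gene for WT_LPS minus WT_PBS and KO_LPS minus WT_LPS, with points for the limma estimate and bars for its 95% interval. Every bar in both panels includes 0.

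The third comparison, KO_LPS against WT_PBS, shares samples with both others, so its values are given beside theirs and not as further evidence. It differs in both treatment and genotype, which cannot be told apart in it. Of the 30 members 0 passed, beside 6 of 12061 genes (0.0497%; limma), and 2 of 30 had an unadjusted p under 0.05, beside 807 genes (6.69%). Those were Birc5, at 165 ± 29.1 FPKM in KO_LPS (SD, n = 3) and 113 ± 6.14 in WT_PBS (n = 2), with a log2 difference of 0.52 ± 0.22 (SE), and Cenpa, at 262 ± 44.2 and 178 ± 17.9 FPKM, with 0.54 ± 0.24 (limma, adjusted p = 0.631 for each). Cdca8 differed by 0.43 ± 0.19, Cdc20 by 0.40 ± 0.18 and Ccnb1 by 0.30 ± 0.15, with the same adjusted p (limma). Without KO_LPS replicate 2 these were 0.26, 0.25 and 0.17. KO_LPS was above WT_PBS without overlap for 10 of 30 members, against 8.22% of all genes: Birc5, Cenpa, Cdca8, Cdc20, Ccnb1, Mad2l1, Prc1, Ccnb2, Aurkb and Foxm1. It was below without overlap for 0 of 30, against 13.3%. The median was 0.12, with 19 of 30 above 0, beside -0.12 and 35% for all genes. Median-ratio scaling moved the median of all genes from -0.12 to 0.01 and that of the members to 0.26, with 26 of 30 above 0. Without KO_LPS replicate 2 the members' median was 0.02.

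The libraries of KO_LPS differed most among themselves. KO_LPS replicate 2 held the highest value for 17 of 30 mitosis genes (56.7%), where it did so for 16.7% of all tested genes, and KO_LPS replicate 3 held 7 more, beside 10.3% of all genes. KO_LPS replicate 1, of the same group, held the lowest value for 12 of 30, beside 14.5% of all genes, and the highest for 0. In KO_LPS replicate 2, 25 of 30 members were above their own mean over the 8 libraries. The median of all 30 relative to that mean was 0.26 (log2), where all genes with a known transcript length had a median of -0.14. Cdk1 was 0.73 and Prc1 0.67 above their means there, and Ttk was at -0.60. Ttk, Kif20a, Top2a, Bub1b and Espl1 were the 5 below their means in that library. The mean log2(FPKM + 1) of the members was 5.92 in KO_LPS replicate 2, 5.80 in KO_LPS replicate 3 and 5.58 in KO_LPS replicate 1, and 5.59 to 5.69 in the 5 Aid WT libraries. The spread within KO_LPS was thus wider than the range over the other groups.

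**Figure D4:**
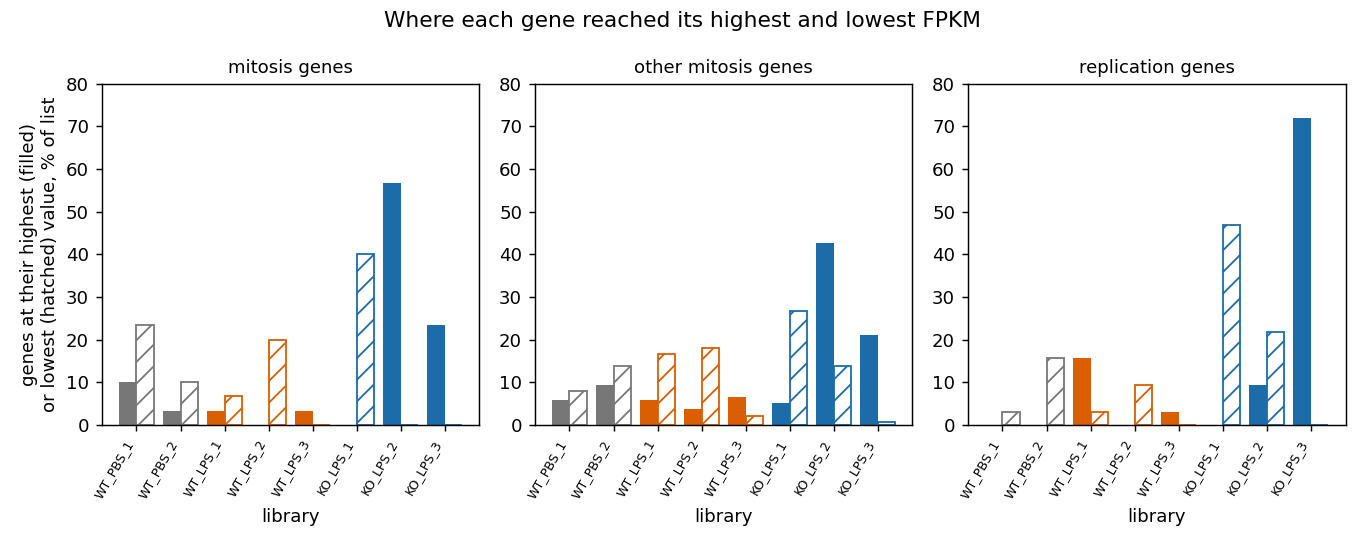
Percent of the 30 mitosis genes, 138 other mitosis genes and 32 replication genes whose highest (filled bars) or lowest (hatched bars) FPKM lay in each of the 8 libraries. The tallest filled bar is KO_LPS replicate 2 for both mitosis lists and KO_LPS replicate 3 for the replication genes.

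Markers of other cells also differed between these libraries. Erythroid markers summed to 1328 and 1094 FPKM in KO_LPS replicates 1 and 2 and to 282 to 481 in the other 6, led by the globin Hba-a1 at 476 and 382 against 26.9 to 132. Klf1, a defining erythroid transcription factor gene, stayed at 0.22 to 0.73 FPKM in all 8 libraries. Neutrophil markers summed to 6983 and 5961 FPKM in those same KO_LPS libraries, to 29656 in WT_LPS replicate 1 and to 9131 to 16446 in the other 5. In KO_LPS against WT_LPS, 0 of 15 neutrophil markers lay above 0, with a median of -0.71, and 6 of 8 tested erythroid markers did, with a median of 1.06, and no marker of either list passed (limma). In KO_LPS against WT_PBS the counts were 1 of 15, with a median of -0.75, and 5 of 8, with a median of 0.86. KO_LPS replicates 1 and 2 were alike in the erythroid and neutrophil sums. In the 10 stromal and endothelial markers they differed. KO_LPS replicate 1 was lowest for 6 (14.5% of all genes), with a sum of 27.7 FPKM. KO_LPS replicate 2 was highest for 4 (16.7% of all genes), with 44.7, where the other 6 libraries summed to 37.5 to 49.4. These markers were near the floor, with medians of 0.46 to 1.15 FPKM per library, and 7 of the 10 averaged 0.5 FPKM or more. Such ranks say little. In the other marker lists 0 genes passed as well (limma). The smallest p in the 3 comparisons, in the order above, belonged to Blnk (0.46 ± 0.21), Cd22 (-0.62 ± 0.22) and Pax5 (-0.77 ± 0.23) among B-lineage genes. Among neutrophil genes it belonged to Prtn3 (0.63 ± 0.42), Ctsg (-0.72 ± 0.29) and Mmp8 (-1.74 ± 0.74), all as log2 differences with SE. Of 15 tested B-lineage genes 11, 4 and 7 lay above 0, with medians of 0.10, -0.20 and -0.08. Of 15 neutrophil genes 4 did in the first comparison, with a median of -0.06, so Prtn3 lay against its list. The erythroid genes with the smallest p were Epor (-0.36 ± 0.21), Alas2 (0.96 ± 0.44) and Tfrc (-0.73 ± 0.40), Tfrc lying against its list's median. Among monocyte and macrophage genes they were Csf1r (-0.66 ± 0.16) in the second comparison and C1qb (1.45 ± 0.49) in the third. Both lay against their list, of which 4, 6 and 4 of 11 lay above 0 in the 3 comparisons, with medians of -0.04, 0.02 and -0.12. T and NK genes gave Cd4 (-0.32 ± 0.21) and then Lck (-0.68 ± 0.21 and -0.52 ± 0.24), although 8, 7 and 6 of the 10 tested lay above 0, with medians of 0.10, 0.15 and 0.24. Stromal genes gave Cxcl12 (-0.71 ± 0.33), Pecam1 (-0.37 ± 0.25) and Kdr (-0.33 ± 0.18). Of the 7 tested, 1, 5 and 2 lay above 0, with medians of -0.26, 0.05 and -0.18, so Pecam1 lay against its list. The part of cell makeup in the mitosis values was not tested.

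The members also did not move as a block. WT_LPS replicate 1, KO_LPS replicate 1 and KO_LPS replicate 2 held the 3 highest values of Foxm1, Birc5, Cdca8, Bub3, Cdc20 and Cenpa, 6 of 30 members against 9.23% of all genes. They held the 3 lowest values of Ttk, Kif20a and Top2a, 3 of 30 against 26% of all genes. Within the passenger complex the ratio of Birc5 to Aurkb ranged over 1.36 to 2.22. Aurkb was not low in those 3 libraries, at 82.4, 80.5 and 88.5 FPKM, so this pair differed in size and not in direction. Cenpa to Top2a was at 3.71 to 3.82 in those 3 libraries and 1.55 to 2.18 in the other 5. That separation follows from how these 2 genes were picked and is no further evidence. Across the 30 genes, the value relative to the gene's own mean followed transcript length and GC content in opposite senses in different libraries. For length, Spearman's rho was 0.60 in WT_PBS replicate 1 and -0.57 in WT_LPS replicate 1, and between -0.31 and 0.29 in the other 6. For GC content it was -0.77 in WT_PBS replicate 1 and 0.61 in WT_LPS replicate 1, and between -0.28 and 0.41 in the other 6. Over all genes the ranges were -0.19 to 0.24 for length and -0.39 to 0.30 for GC content. These are descriptions across genes of the same libraries, which share depth and base composition, and genes are not independent replicates. The long transcripts of Cenpf, Mki67 and Cenpe, at 11130, 10061 and 7910 bases, were relatively high in WT_PBS replicate 1 and low in WT_LPS replicate 1. So were the shorter Ttk, Kif11 and Bub1, at 2871, 4819 and 3421 bases, while the long Espl1, at 6658 bases, was below its mean in both libraries. For Mad2l1 the longest annotated transcript, at 7557 bases, exceeds the RefSeq gene (chr6:66535221-66541107), so its length is uncertain.

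**Figure D5:**
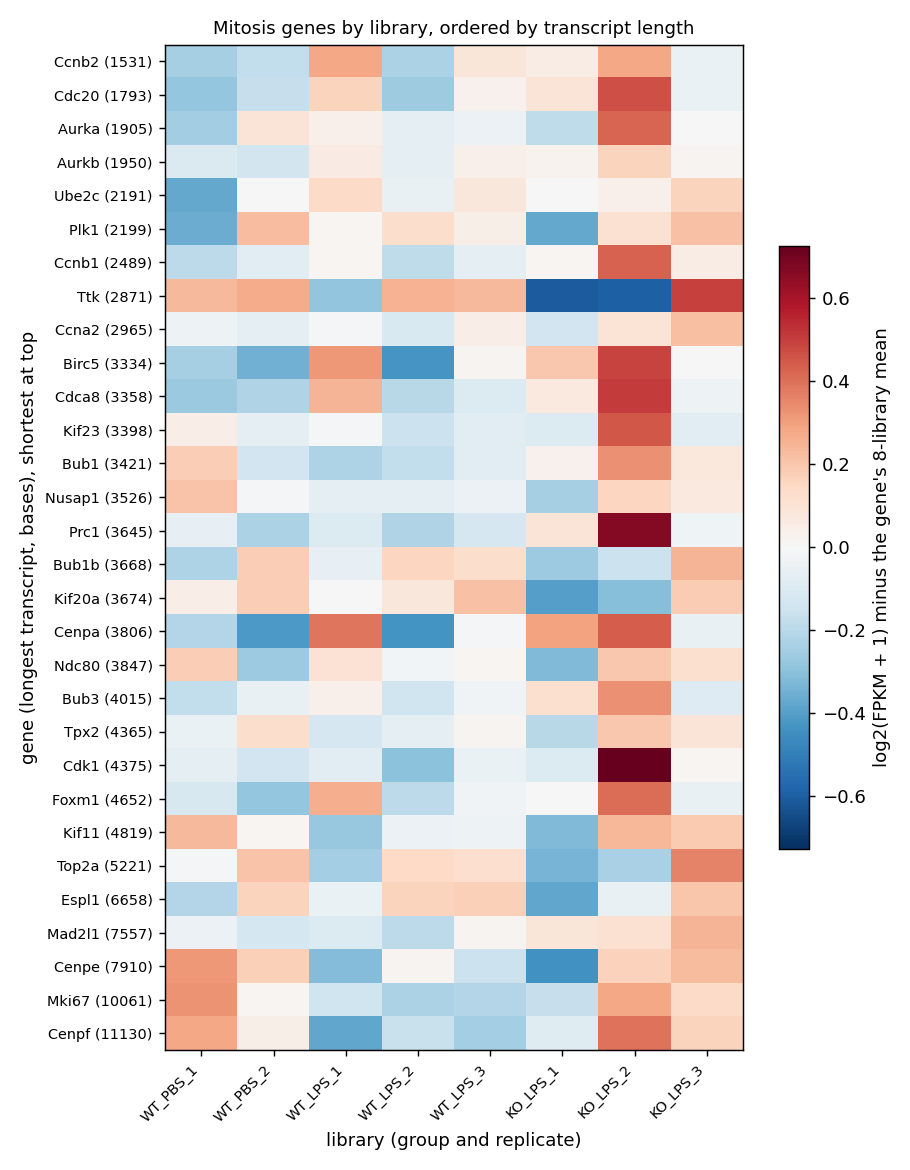
Each mitosis gene's log2(FPKM + 1) minus its own mean over the 8 libraries (colour), with genes ordered by the length in bases of their longest annotated transcript. KO_LPS replicate 2 is red for 25 of 30 genes, and WT_PBS replicate 1 is blue for most short transcripts and red for the 3 longest, with exceptions such as Ttk.

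Other genes of the cell cycle were read from lists. Of 138 further mitosis genes 0 passed in any comparison (limma), and their medians were -0.01 for WT_LPS against WT_PBS, 0.06 for KO_LPS against WT_LPS and 0.02 for KO_LPS against WT_PBS. Without KO_LPS replicate 2 the last 2 were 0.0025 and -0.05, and without KO_LPS replicate 1 they were 0.17 and 0.11. The first was -0.06 without WT_LPS replicate 3 and 0.01 without WT_LPS replicate 1. For LPS in Aid WT marrow the smallest p belonged to Cdc25b, a phosphatase that activates CDK1, with a log2 difference of 0.41 ± 0.15, the kinetochore scaffold gene Knl1 with -0.54 ± 0.23 and the condensin gene Smc4 with -0.38 ± 0.18. For KO_LPS against WT_LPS they were the abscission gene Cep55 with 0.46 ± 0.17, the condensin gene Ncapg with 0.36 ± 0.15 and the centromere gene Cenpw with 0.38 ± 0.17. For KO_LPS against WT_PBS they were the anaphase-promoting complex genes Anapc5 with 0.40 ± 0.13 and Anapc15 with 0.53 ± 0.24, and the condensin gene Ncaph2 with 0.47 ± 0.20. KO_LPS replicate 2 held the highest value of 59 of the 138 (42.8%), and KO_LPS replicate 3 of 29, beside 16.7% and 10.3% of all genes.

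DNA replication and G1/S genes were arranged otherwise between the KO_LPS libraries. KO_LPS replicate 3 held the highest value for 23 of 32 (71.9%, beside 10.3% of all genes) and KO_LPS replicate 2 for 3, whereas KO_LPS replicate 1 held the lowest for 15. Their medians were 0.11, -0.05 and -0.01 in the 3 comparisons in the order above, and 0 of 32 passed in each (limma). The second was 0.02 after median-ratio scaling, 0.19 without WT_LPS replicate 1 and KO_LPS replicates 1 and 2, and -0.20 to 0.01 with 1 library left out, lowest without KO_LPS replicate 3. The third was 0.14 after median-ratio scaling, and -0.16 without KO_LPS replicate 3 to 0.08 without KO_LPS replicate 1. The first fell to 0.05 without WT_LPS replicate 3. The smallest p belonged to Mcm5, a helicase subunit, with 0.27 ± 0.14, Pold1, a polymerase subunit, with -0.26 ± 0.15, and Cdt1, a licensing factor, with 0.31 ± 0.16. Among 11 cell cycle inhibitors 0 passed (limma). Btg1 had the smallest p for LPS in Aid WT marrow, with 0.39 ± 0.30. Cdkn2a, whose products restrain CDK4 and CDK6 and stabilise p53, had it in both others, at 289.5 ± 57.1 FPKM in KO_LPS, 213 ± 18.5 in WT_LPS (SD, n = 3 each) and 186 ± 8.35 in WT_PBS (n = 2), with log2 differences of 0.42 ± 0.16 from WT_LPS and 0.61 ± 0.17 from WT_PBS (limma, adjusted p = 0.765 and 0.576).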

How the data were processed

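Bone marrow RNA of 8 mice was sequenced from total RNA with a SMARTER mRNA-Seq kit, per the labels' protocols. The authors deposited FPKM values for 18020 rows, rounded to 2 decimals, of which 16798 matched a symbol in RefSeq GRCm38.p6. The builds GRCm38 and mm10 come from the submitters' processing notes. The aligner is not given in the sources used here, and neither is the quantifier. Depth in reads is unknown, so no counting interval is given. FPKM does not correct for composition, so a few abundant transcripts lower all others. Groups came from genotype and treatment labels, and replicate numbers follow accession order.

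From these values, log2(FPKM + 1) was computed for 12061 genes that averaged 0.5 FPKM or more. Group means over all 8 libraries were fitted with limma 3.58.1 in R 4.3.3 (empirical Bayes with a trend, two-sided, Benjamini-Hochberg over all genes, threshold 0.05). A fold change on this scale understates low genes. The fit was tested on simulated data. Each comparison had 16 alternatives (pseudocounts of 0.1 and 5, no filter or 5 FPKM, 2 other scalings, only the groups compared, a title number above 10 as covariate, each library left out). Added after seeing the data were 3 others (length and GC trend removed, first principal component as covariate, 3 libraries left out). Transcript length and GC content are of the longest GENCODE M21 transcript, held for 93.9% of tested genes.

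The members and all gene lists were chosen with earlier results of these data known. All members are named, and values in every library are given for the 5 with the smallest p in each comparison and for Ccnb1, Ccnb2, Cdk1, Mki67, Top2a, Plk1, Aurkb, Foxm1, Birc5 and Bub3. Of other mitosis genes the 3 with the smallest p are named, and 1 of each of the replication, inhibitor and marker lists. Values of a few genes outside the members, the targeted gene among them, are not reported here, so no check of the genotype labels is given. Ttk and the marker genes given by library were chosen after their values were seen. Python 3.11.15 and matplotlib 3.10.9 were used for figures.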

Additional observations from a re-analysis of the deposited data

How the results depend on the processing

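No mitosis gene passed in any of the 3 comparisons under any of the 19 alternatives, and the 5 members with the smallest p in each comparison kept their direction throughout, though not their size. Those 5 were picked by p in these same libraries, so a kept direction was likely beforehand and is no further evidence. No paired analysis was possible because replicate numbers follow accession order and pair no samples. Counts over all genes were less stable. For KO_LPS against WT_LPS, 10 genes passed, beside 5 with no filter and 2 with a mean of at least 5 FPKM. With only the groups compared 0 passed, and 16 did with the first principal component as covariate. With the title-number covariate WT_LPS replicate 1 stands alone for its group, so no count is given. Leaving out 1 library gave 0 to 160, the highest without KO_LPS replicate 3. For KO_LPS against WT_PBS, 6 passed, beside 0 with no filter or with only the groups compared. With a mean of at least 5 FPKM or median-ratio scaling 3 passed. Quantile normalization gave 10, the title-number covariate 2, and leaving out 1 library gave 0 to 125. For WT_LPS against WT_PBS it gave 0 to 2. The members' median for KO_LPS against WT_PBS was 0.12, and 0.26 both with median-ratio scaling and with the length and GC trend removed. Leaving out the 3 libraries that stand apart left 1 KO_LPS library, assumed to vary like the other groups, so no count over all genes is given. The causes were not tested. With groups of 2 and 3, the width of the intervals varied between members, and so did the size of difference that could be resolved. The outermost bound was -1.27 (log2), for Ttk in KO_LPS against WT_PBS. For Aurkb in KO_LPS against WT_LPS the interval was -0.17 to 0.29. Only Birc5 and Cenpa in KO_LPS against WT_PBS had intervals that excluded 0, at differences of 0.52 and 0.54. These intervals are not adjusted for the number of genes, and neither gene passed.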
